A study of Rattus norvegicus with 2 samples.

Results

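This account describes the circular RNAs (circRNAs) of 4 host genes that act on messenger RNA after transcription: ZC3H13 and YTHDC2, which belong to the machinery of the RNA mark N6-methyladenosine (m6A), and TNRC6A and TNRC6B, which carry out silencing by microRNAs. The members were taken by name: every row of the deposited table that gives one of these symbols alone as its host gene. They made 18 circRNAs of 17260, with 8 from ZC3H13, 3 from YTHDC2, 3 from TNRC6A and 4 from TNRC6B. There were 2 libraries to be compared, 1 per group, each from a group of 3 rats killed 21 days after surgery. Animals with bone cancer pain had received Walker256 cells, a rat mammary carcinoma line grown as ascites in SD rats, in the marrow cavity of the tibia. The library of these animals is called the pain library here. Controls had the same operation with Walker256 cells boiled for 20 minutes. The labels do not say whether RNA was pooled. They name cancer cells as the tissue but spinal cord cells as the cell type.

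A circRNA forms when a downstream splice site is joined to an upstream one, and reads across that back-splice junction are what the table counts. They measure neither the linear messenger RNA nor the protein of the host gene. m6A is written by a methyltransferase complex around METTL3 and METTL14, removed by FTO and ALKBH5, and read by proteins with a YTH domain. ZC3H13 is a zinc finger protein that helps hold the regulatory part of the writer complex in the nucleus, and YTHDC2 is a reader that is also an RNA helicase. TNRC6 proteins, also known as GW182 proteins, bind Argonaute and bring in the deadenylases that shorten the poly(A) tail of a microRNA target.

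Values are whole circular junction reads, recovered from the deposited values, and the totals were 159941 reads for the control and 151685 for the pain library. Ratios divide the share of the pain library by the share of the control library and carry an exact 95% interval for counting error alone. There were no replicates, so no test between conditions was possible and no ratio has a replicate check. A circRNA or host gene with 10 or more reads over both libraries was called by its size, as higher from a ratio of 2 and as lower from 0.5, after 0.5 reads were added to each library. The lowest listed value was 2 reads, so a junction that is not listed may still have had 1, and no fold is given for it. The table's identifiers are human. All 4 host genes have a rat gene of the same name, and 0 of the 4 lie on the chromosome number of that rat gene (assembly GRCr8). Positions are therefore printed as the table gives them, with neither its build nor a strand stated. Of 18 neuronal markers 1 (RIMS1) had a circRNA, with 127 control and 90 pain reads. Of 7 carcinoma or dividing cell markers 2 (MKI67 and TOP2A) had reads, 60 and 43. Few reads were listed for 2 of 8 oligodendrocyte markers (2 and 5) and 1 of 6 astrocyte markers (none listed and 4). For microglial markers it was 0 of 6. The labelled spinal cord cells could therefore not be recognised from these markers. If the RNA came from a mixture of cells, which was not tested, fewer cells of a type and less circRNA per cell cannot be told apart.

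ZC3H13 was higher in the pain library, TNRC6A and YTHDC2 were lower, and TNRC6B lay between the 2-fold limits. ZC3H13 had 15 control and 42 pain reads (ratio 2.95, interval 1.60 to 5.73). TNRC6A had 80 and 25 (0.33, 0.20 to 0.52). The intervals of these host genes exclude 1. YTHDC2 had 15 and 6 (0.42, 0.13 to 1.15), and TNRC6B had 21 and 15 (0.75, 0.36 to 1.53). Both of these intervals include 1. By the same rule 27.5% of all 3038 host genes with 10 or more reads were called, 13.3% higher and 14.2% lower. Of these host genes, 6.32% had a ratio above that of ZC3H13 and 6.85% one below that of TNRC6A. The plot of all host genes shows that YTHDC2, with 21 reads in all, sits where ratios scatter widely, and TNRC6A, with 105, where they are closer together.

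**Figure D1:**
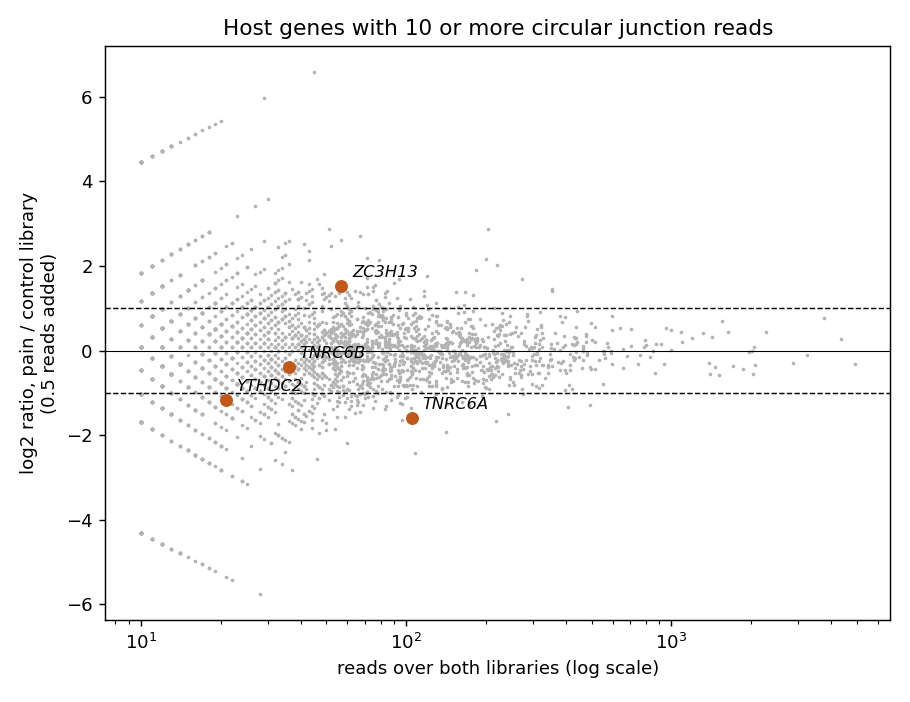
Log2 ratio of the pain over the control library (0.5 reads added) against reads over both libraries on a log scale. Each grey point is 1 of 3038 host genes with 10 or more reads, the orange points are the 4 host genes, and dashed lines mark 2-fold. ZC3H13 lies above the upper line at 1.53, TNRC6A (-1.58) and YTHDC2 (-1.18) below the lower one, and TNRC6B (-0.40) between.

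TNRC6A had the most reads of the 4 in the control and ZC3H13 in the pain library. As RPM, that is with the circular junction reads of a library scaled to 1000000, TNRC6A came to 500.2 in the control (exact Poisson interval 397 to 623), above TNRC6B at 131 (81.3 to 201) and ZC3H13 and YTHDC2, both at 93.8 (52.5 to 155). The intervals of the last 3 overlap. In the pain library ZC3H13 was first at 277 (200 to 374), followed by TNRC6A at 165 (107 to 243), TNRC6B at 98.9 (55.3 to 163) and YTHDC2 at 39.6 (14.5 to 86.1). Each of these overlaps the interval of its neighbour in the order. These are levels of junction reads summed over the listed junctions of a host gene, so they depend on how many junctions were listed. Summed over all 4, the host genes had 131 control and 88 pain reads, or 0.082% and 0.058% of the libraries.

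Of the 18 junctions, 7 were listed in both libraries, 6 in the control alone and 5 in the pain library alone. The 38.9% listed in both compares with 43.9% of all 15108 circRNAs with 1 host gene. Junctions are lettered below within each host gene by their start and then their end. Only 7 reached 10 reads over both libraries; of these 2 were at least 2-fold higher (ZC3H13-d and ZC3H13-f), 3 at least 2-fold lower (TNRC6A-a, TNRC6B-a and YTHDC2-a) and 2 between (ZC3H13-g and TNRC6B-c). That is 5 of 7 called, where 34.3% of the 5415 circRNAs with 10 or more reads were called (17.3% higher, 17.0% lower). The 34.3% was not matched for reads, and all of the 7 but TNRC6A-a had only 11 to 16. The interval also excluded 1, or the junction was listed in 1 library alone, for 3 of the 5: ZC3H13-d, TNRC6A-a and YTHDC2-a. The other 11 junctions had 2 to 9 reads each. Where ends within 3 bases were pooled, a setting chosen after seeing the data, 4 of 6 junctions were called.

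**Figure D2:**
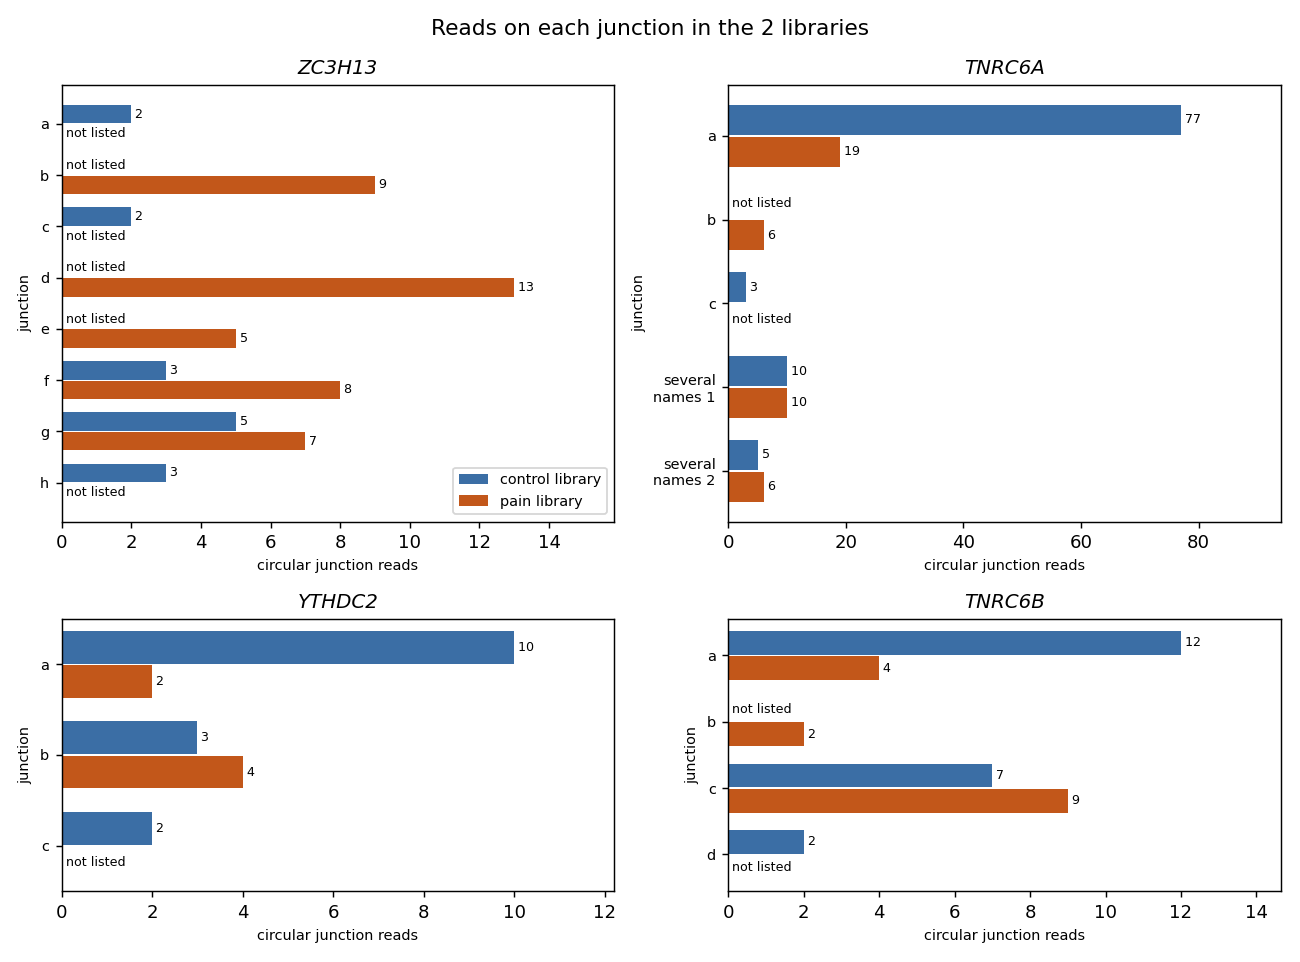
Circular junction reads on each junction of the 4 host genes in the control (blue) and pain (orange) libraries, 1 bar per library, with the reads printed at the bar. TNRC6A-a has the most reads, 77 and 19, while ZC3H13-b, ZC3H13-d and ZC3H13-e are listed in the pain library alone; the rows called several names 1 and 2 name TNRC6A beside small RNAs.

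The ZC3H13 reads were spread over many junctions, and the libraries differed in which of them were listed. All lie on chromosome 13 of the table. ZC3H13-d (46577274 to 46619651) had 13 pain reads and was not listed in the control. ZC3H13-b (46577274 to 46594692), with 9, and ZC3H13-e (46584483 to 46594692), with 5, were also listed in the pain library alone. These 3 junctions held 27 of its 42 reads (64.3%, exact binomial interval 48.0 to 78.4). Over all circRNAs with 1 host gene, junctions listed in the pain library alone held 10.9% of its reads. That share is weighted by reads over circRNAs of every depth and was not matched to the few reads of these junctions. ZC3H13-d ends 3 bases after ZC3H13-c, which had 2 control reads. With these 2 pooled, only ZC3H13-b and ZC3H13-e stayed in the pain library alone, with 14 of the 42 reads.

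Both ZC3H13 junctions listed in the 2 libraries start at 46594584. ZC3H13-f (to 46619648) had 3 control and 8 pain reads (2.81, 0.67 to 16.5), and ZC3H13-g (to 46619651) had 5 and 7 (1.48, 0.40 to 5.90). Each interval includes 1. Over these 2 junctions alone, the ZC3H13 ratio of 1.98 was under 2-fold. Junctions listed in the control alone were ZC3H13-h (46616299 to 46619651, 3 reads), ZC3H13-a (46544497 to 46563232, 2 reads) and ZC3H13-c (46577274 to 46619648, 2 reads). They made 7 of the 15 control reads (46.7%, 21.3 to 73.4), against 10.3% over all circRNAs with 1 host gene, again a share not matched for reads. With ZC3H13-c and ZC3H13-d pooled, only ZC3H13-a and ZC3H13-h stayed in the control alone.

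Grouped by their start, the junctions of ZC3H13 did not differ evenly. Those that start at 46577274 had 2 control and 22 pain reads (11.6, 2.85 to 102). Those that start at 46594584 had 8 and 15 (1.98, 0.79 to 5.38). The single junctions at the other 3 starts had 2 and none listed, none listed and 5, and 3 and none listed. Grouped by end, the 3 junctions that end at 46619651 had 8 and 20 reads (2.64, 1.11 to 6.92) and the 2 that end at 46619648 had 5 and 8 (1.69, 0.49 to 6.55). The 2 that end at 46594692 had none listed in the control and 14 reads in the pain library, and ZC3H13-a is the single junction at the remaining end. The starts and ends were grouped after their values had been seen.

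Ends 46619648 and 46619651 differ by 3 bases and occur with the same 2 starts, so ZC3H13-c and ZC3H13-d form 1 such pair and ZC3H13-f and ZC3H13-g another. Whether these are 2 splice sites or 1 that was placed in different ways was not tested. With the ends pooled, ZC3H13-c and ZC3H13-d had 2 and 13 reads (6.85, 1.55 to 62.6), so this junction was then listed in both libraries. Pooled ZC3H13-f and ZC3H13-g had 8 and 15 (1.98, 0.79 to 5.38). Pairs of junctions with 1 shared position and the other within 5 bases occurred in 63 of 2946 host genes with 2 or more junctions (2.14%).

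**Figure D3:**
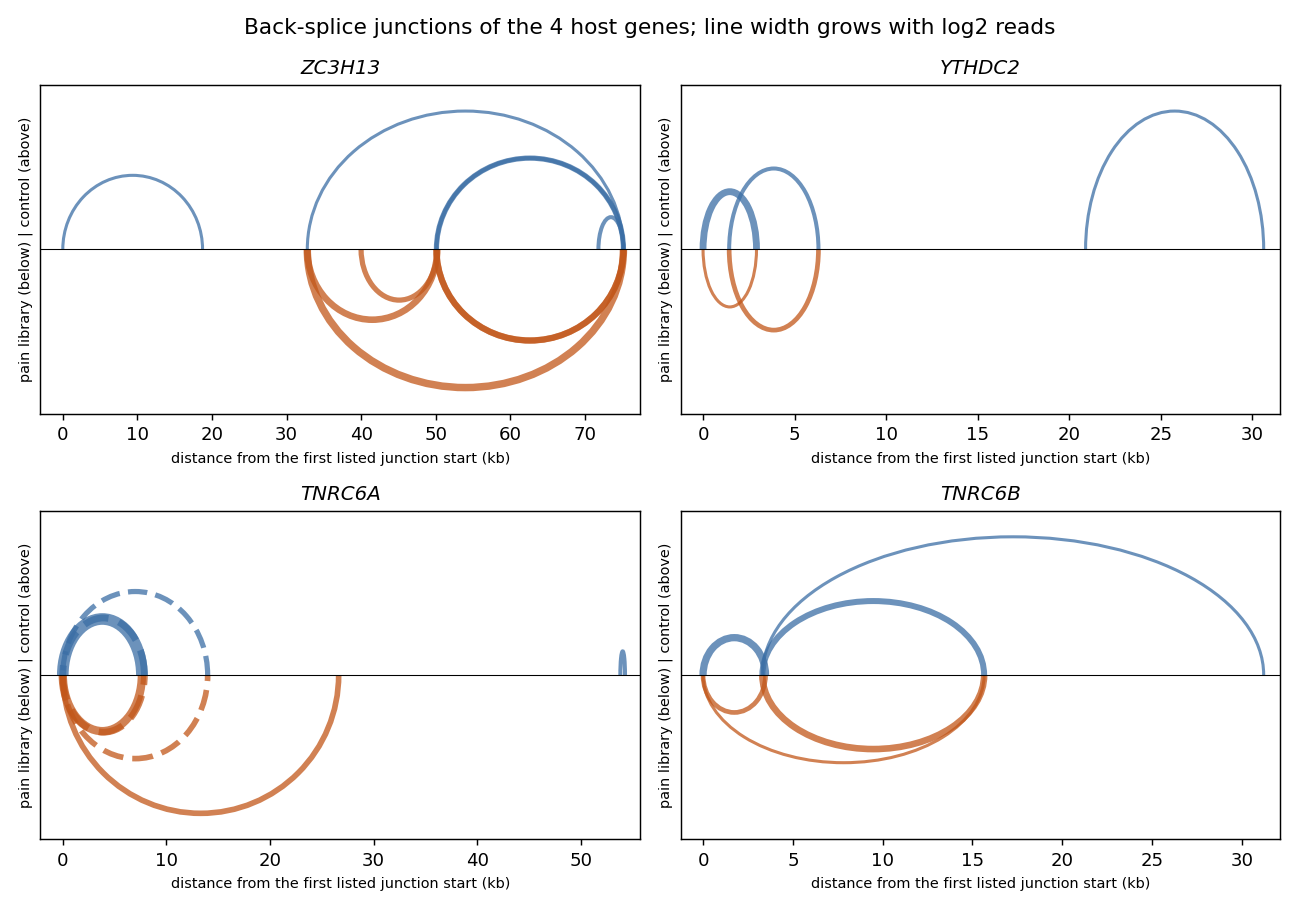
Back-splice junctions of the 4 host genes as arcs from start to end, with control above and pain below the line, the horizontal axis in kb from the first listed start of that host gene, and arc height growing with the span. Line width grows with log2 reads, and dashed arcs are the 2 rows that name TNRC6A beside small RNAs. The 9, 13 and 5 reads of ZC3H13-b, ZC3H13-d and ZC3H13-e appear below the line alone (the arc above ZC3H13-d is ZC3H13-c, which ends 3 bases before it), and 4 of the TNRC6A arcs leave from 1 start.

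The ZC3H13 junctions also meet inside the gene. The stretch from 46594584 to 46594692, 109 bases long, is where ZC3H13-b and ZC3H13-e end and where ZC3H13-f and ZC3H13-g begin. ZC3H13-d spans both sides, 42378 bp from end to end, and is the longest of the 18 junctions. TNRC6B shows the same arrangement over 176 bases (40669429 to 40669604 on chromosome 22), where TNRC6B-a ends and TNRC6B-c and TNRC6B-d begin. A stretch of at most 300 bases that ends 1 junction and begins another was found in 777 of the 2946 host genes (26.4%). Sharing of an exact start or end was as frequent as elsewhere, at 13 of 18 junctions (72.2%) against 71.3% of the junctions of all host genes with 2 or more.

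YTHDC2 had 3 junctions on chromosome 5. YTHDC2-a (112868576 to 112871495) had 10 control and 2 pain reads (0.21, 0.022 to 0.99). YTHDC2-b (112870002 to 112874878), which overlaps it, had 3 and 4 (1.41, 0.24 to 9.60), and YTHDC2-c (112889464 to 112899189) had 2 control reads and was not listed in the other library. YTHDC2-a thus held 66.7% of the control reads of the gene (38.4 to 88.2) and 33.3% of the pain reads (4.33 to 77.7), with intervals that overlap. The size call for the gene rests on YTHDC2-a, without which it had 5 and 4 reads (0.84). It also ended when the 2 junctions listed in both libraries were counted alone (13 and 6 reads; 0.49, or 0.51 with 0.5 reads added) and when YTHDC2-c was taken as 1 read where it was not listed (15 and 7; 0.49, or 0.51). None of the 3 junctions carried an identifier of circBase, a catalogue of published circRNAs.

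TNRC6A had 1 junction that held most of its reads and that was lower in the pain library. TNRC6A-a (chromosome 16, 24762047 to 24769681) had 77 control and 19 pain reads, or 481 and 125 RPM (0.26, 0.15 to 0.43), a level 3.84-fold lower (2.30 to 6.73). It ranked 265 among control circRNAs by reads and 1562 in the pain library. TNRC6A-b (24762047 to 24788679, hsa_circ_0006008) had 6 pain reads and was not listed in the control. TNRC6A-c (24816026 to 24816172, hsa_circ_0038679), at 147 bp the shortest of the 18, had 3 control reads and was not listed in the other library.

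The low TNRC6A ratio rests on TNRC6A-a: the other 2 junctions together had 3 and 6 reads (2.11, 0.45 to 13.0). Another 2 rows name TNRC6A beside small RNAs that the table places there, and they start at the same position as TNRC6A-a. The one that ends at 24769920 had 10 reads in each library (1.05, 0.39 to 2.82), and the one that ends at 24776032 had 5 and 6 (1.27, 0.32 to 5.24). With them TNRC6A had 95 and 41 reads (0.46, 0.31 to 0.66), still past 2-fold. Of these, TNRC6A-a held 81.1% in the control (71.7 to 88.4) and 46.3% in the pain library (30.7 to 62.6), and these intervals do not overlap. Over the junctions that name TNRC6A alone, it held 96.25% (89.4 to 99.2) and 76.0% (54.9 to 90.6), and those intervals do overlap. The 4 junctions other than TNRC6A-a had 18 and 22 reads (1.29, 0.66 to 2.55).

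TNRC6B, a paralogue of TNRC6A, had 4 junctions on chromosome 22, and its 2 main ones stood on either side of 1. TNRC6B-a (40666126 to 40669604, hsa_circ_0063408) had 12 control and 4 pain reads (0.35, 0.083 to 1.16). TNRC6B-c (40669429 to 40681774, hsa_circ_0063411) had 7 and 9 (1.36, 0.45 to 4.28). TNRC6B-a made 57.1% of the control reads of the gene (34.0 to 78.2) and 26.7% of the pain reads (7.79 to 55.1), and TNRC6B-c 33.3% (14.6 to 57.0) and 60.0% (32.3 to 83.7). Both pairs of intervals overlap. Without TNRC6B-a the gene had 9 and 11 reads (1.29), and without TNRC6B-c it had 14 and 6 (0.45). TNRC6B-d (40669429 to 40697337, hsa_circ_0063412) had 2 control reads. TNRC6B-b (40666126 to 40681774), which runs from the start of TNRC6B-a to the end of TNRC6B-c, had 2 pain reads.

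Differences between junctions of 1 host gene were common in the table. Of 1116 host genes with 2 or more junctions of at least 10 reads, 760 (68.1%) had a gap of 1 or more in log2 ratio between 2 of them, with a median gap of 1.49. The gap was 1.81 in TNRC6B, which 41.3% of these host genes matched or passed. In ZC3H13 it was 4.31, matched or passed by 12.5%, and there it depends on the reads added to ZC3H13-d, which was not listed in the control. It also depends on keeping ZC3H13-d apart from ZC3H13-c, which ends 3 bases before it and had 2 control reads. With such ends pooled, the ratios were 6.85 for this pair and 1.98 for ZC3H13-f and ZC3H13-g. The share of host genes with as large a gap was not computed for pooled junctions.

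Few of the 18 junctions were catalogued. In all, 5 of 18 (27.8%) had a circBase identifier, none from ZC3H13 (0 of 8) or YTHDC2 (0 of 3), 2 of 3 from TNRC6A and 3 of 4 from TNRC6B, against 58.6% of all circRNAs with 1 host gene. TNRC6A-a was among those without one. The median span was 13998 bp over the 18 and 5804 bp over all circRNAs with 1 host gene, with 21901 bp for ZC3H13 and 4877 bp for YTHDC2. These are spans on the genome, introns included. ZC3H13 had many junctions: 7.47% of the 4993 host genes had 8 or more, and the median was 2. The 8 count both junctions of each pair with ends 3 bases apart, and the share was not matched for reads.

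Of the rest of the m6A machinery, no other member with 10 or more reads was called higher. Of 28 listed m6A genes 19 had a circRNA and 15 had 10 or more reads. ZC3H13 was the 1 member called higher (6.67%, against 13.3% of all host genes), and 3 were called lower (20.0%, against 14.2%): YTHDC2, FTO and YTHDF1. The median log2 ratio was -0.35 over the 15 members and -0.03 over all host genes with 10 or more reads. Without ZC3H13 and YTHDC2 it was -0.35 over 13.

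Among the writers, METTL3, the catalytic subunit, had 87 control and 70 pain reads (0.85, 0.61 to 1.18). VIRMA, a scaffold of the complex listed as KIAA1429, had 14 and 12 (0.90, 0.38 to 2.11). WTAP, which joins the 2 parts of the complex, had 2 pain reads and was not listed in the control. Of the enzymes that write m6A apart from this complex, METTL16 had 8 control reads and was not listed in the pain library, and ZCCHC4, which acts on ribosomal RNA, had 40 and 29 (0.76, 0.46 to 1.26); both were named after their values were seen. METTL3, VIRMA and ZCCHC4 thus had intervals that include 1, while that of ZC3H13 lay above 1. The interval of VIRMA overlaps that of ZC3H13, and those of METTL3 and ZCCHC4 lie below it. Differences among these genes were not tested.

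The eraser FTO had the lowest ratio of the m6A list among members with 20 or more reads, with 182 and 61 reads (0.35, 0.26 to 0.47). Among the readers, YTHDF1 had 12 and 5 (0.44, 0.12 to 1.34) and YTHDF2, which speeds the decay of marked RNA, had 10 and 18 (1.90, 0.83 to 4.60). YTHDF3 had 6 pain reads and was not listed in the control. The intervals of YTHDC2, YTHDF1 and YTHDF2 all include 1, and differences among these readers were not tested. The RNA-binding proteins IGF2BP1 (32 and 33 reads; 1.09, 0.65 to 1.83) and IGF2BP2 (40 and 20; 0.53, 0.29 to 0.92), which also bind marked RNA, were the next named members.

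**Figure D4:**
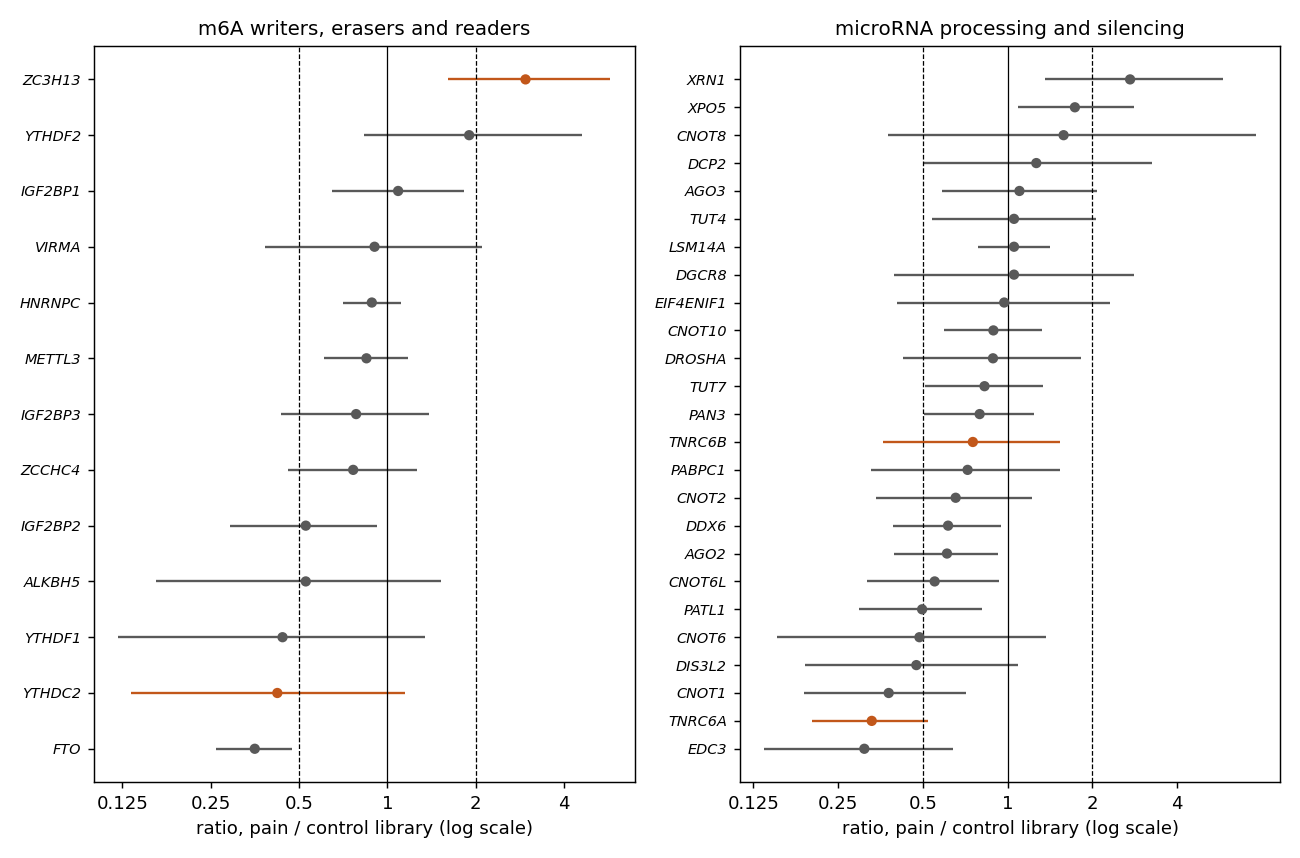
Ratio of the pain over the control library (log scale) with exact 95% intervals for members of the m6A list (left) and the microRNA list (right) that had 10 or more reads and a junction listed in both libraries. The 4 host genes are orange, and lines mark ratios of 0.5, 1 and 2. ZC3H13 is highest on the left and FTO lowest, and on the right TNRC6A is next to EDC3 at the low end and XRN1 is highest.

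In the list of microRNA processing and silencing genes, 33 of 43 had a circRNA and 26 had 10 or more reads. Of these, 2 were called higher (7.69%), XRN1 and DICER1, and 4 lower (15.4%), TNRC6A, EDC3, CNOT1 and DIS3L2. These shares stand against the 13.3% and 14.2% of all host genes given above. The median log2 ratio was -0.30, and -0.22 over the 24 members other than TNRC6A and TNRC6B.

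The Argonautes, which TNRC6 proteins bind, had ratios from 0.61 to 2.11. AGO2, the Argonaute that can cut its target, had 64 and 37 reads (0.61, 0.40 to 0.93), AGO3 had 22 and 23 (1.10, 0.59 to 2.07), and AGO4 had 3 and 6 (2.11, 0.45 to 13.0). TNRC6C, the other paralogue, had 8 control reads on 1 junction and none listed in the pain library, where a row that also names small RNAs had 2. The interval of AGO2 overlaps that of TNRC6A. The interval of AGO3 lies above it, but no longer once rows that name several genes are added (22 and 25 reads for AGO3; 1.20, 0.65 to 2.23).

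Most factors that act after TNRC6 proteins lay between the 2-fold limits, as did most host genes. Of 24 members for deadenylation, decapping and decay, a group drawn from the list after its values were seen, 15 had 10 or more reads, with 1 higher, 2 lower and 12 between. Of all 3038 host genes with 10 or more reads, 2203 lay between, 13.3% were higher and 14.2% lower. CNOT1, the scaffold of the CCR4-NOT deadenylase, had 39 and 14 reads (0.38, 0.19 to 0.71), and EDC3, which promotes decapping, had 34 and 10 (0.31, 0.14 to 0.64). XRN1, the exonuclease that degrades decapped RNA, had 12 and 31 (2.72, 1.36 to 5.82), and the decapping enzyme DCP2 had 10 and 12 (1.27, 0.50 to 3.27). CNOT1 and EDC3 thus had intervals below 1 and XRN1 one above 1. DIS3L2, an exonuclease that was left out of the group of 24, had 20 and 9 reads (0.47, 0.19 to 1.09) and was called lower. It was named after its values were seen, and with it the group would hold 1 more member called lower. With rows that name several genes added, CNOT1 had 53 and 26 reads (0.52) and DIS3L2 24 and 14 (0.62), and neither was called lower. The TNRC6 paralogue TNRC6C, with 8 and 2 reads (0.26, 0.027 to 1.32), was then called lower.

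Of the processing factors, XPO5, which exports microRNA precursors, had 31 and 51 reads (1.73, 1.09 to 2.80). DICER1, which cuts the precursors, was not listed in the control and had 10 pain reads over 2 junctions. It too was named after its values were seen.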

How the data were processed

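The deposited table holds 1 value per circRNA and library, headed TPM in the file headers. The deposited values were treated as RPM, scaled to a library's circular junction reads without a length term, from the values themselves: above the placeholder of 0.001, 100% of values were whole multiples of a fixed step, with a tolerance of 0.01 reads. Dividing by the step gave reads, and the placeholder was taken as 0. The submitters' processing notes name CASAVA 1.8, BWA and the build rn6; the circRNA caller is not given in the sources used here. Per the labels' protocols, ribosomal RNA was removed and linear RNA digested with 16 units of RNase R for 15 minutes at 37 °C.

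Ratios used the library totals and exact conditional binomial (Clopper-Pearson) 95% intervals, and shares exact binomial ones; PCR copies are not independent molecules, so all cover counting error only. Host sums used 15108 circRNAs of 4993 host genes, leaving out 2082 rows with several names, 23 with none, 30 with a date and 17 with a small RNA alone. Host names that are bare numbers (43162, 43527, 43530 and 43531) were not caught as dates and were kept. CircRNAs of chromosome Y and of X inactivation genes were left out of results.

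The members, lists and settings were chosen with earlier results of these data known. All 18 junctions are accounted for. Of each list, the 3 highest and 3 lowest members with 20 or more reads are named, with the relatives of the host genes. For each host gene, the 3 nearest in log2 RPM are named, ties kept. Other settings were median of ratios and trimmed mean (TMM, trimming 30% of ratios and 5% of abundances) scaling, read minimums of 5 and of 20, a ratio of 1.5, the addition of 2 reads, an interval without 1, and subsets of junctions. The scripts were tested on simulated data. The tools were numpy 2.4.6, pandas 2.3.3, matplotlib 3.10.9 and scipy 1.17.1 under Python 3.11.15.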

Additional observations from a re-analysis of the deposited data

How the results depend on the processing

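No paired analysis was possible because there was 1 library per group, and no replicate could be left out. Median of ratios and TMM scaling shift log2 ratios by -0.08 and -0.01 and moved no ratio of a host gene or junction outside its interval. The TNRC6A ratio turned to 2.11 without its junction with the most reads and to 2.11 with circBase identifiers alone, both from 3 and 6 reads. The TNRC6B ratio was 0.45 or 1.29 without 1 or the other of its 2 main junctions. The ratios of ZC3H13, YTHDC2 and TNRC6B stayed within their intervals under every setting that gave a value; with circBase identifiers alone, ZC3H13 and YTHDC2 have none. Counting junctions listed in both libraries alone, ZC3H13 had 8 and 15 reads (1.98), or 10 and 28 (2.95) once ends within 3 bases were pooled, a setting chosen after seeing the data. The m6A genes called higher changed from 1 to 2 with a minimum of 5 reads, 2 at a ratio of 1.5 and 0 with circBase identifiers alone. Those called lower changed from 3 to 6 at a ratio of 1.5 and to 1 where the interval had to exclude 1. Under the other settings that count was 2 to 4. The microRNA genes called higher changed from 2 to 1 with a minimum of 20 reads, 4 at a ratio of 1.5 and 3 with circBase identifiers alone. Those called lower changed from 4 to 10 at a ratio of 1.5, to 6 under median of ratios scaling and to 5 under TMM. The lower count was 5 with a minimum of 5 reads, and 3 with 2 reads added or where the interval had to exclude 1. It was also 3 with circBase identifiers alone and with rows that name several genes added, a setting chosen after seeing the data. The junctions called changed from 5 to 8 with a minimum of 5 reads, 1 with 20 reads, 3 where the interval had to exclude 1 and 1 with circBase identifiers alone; these settings were chosen after seeing the data. A smaller fold, another minimum and fewer junctions change these counts by construction. Depth limits most junctions, 11 of 18 having under 10 reads.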

Other observations

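Host genes nearest to each of the 4 in RPM over the 2 libraries were found by distance on the log2 scale. With 2 libraries, this likeness says only that both read numbers are close. ZC3H13 was nearest to the collagen genes COL4A1 (14 and 42 reads) and COL4A2 (16 and 43) and to KANSL1L (16 and 40). TNRC6A was nearest to FOSL1 (76 and 28), PTMS (74 and 22) and SPARC (69 and 27). YTHDC2 shared its 15 and 6 reads with COMMD1, KIAA0556, MBTD1, OTUD3 and SIRT5. TNRC6B had the same 21 and 15 reads as UBE2C, with ANP32B, EIF2S3 and PAIP2 (22 and 15 each) next.

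The ratio of TNRC6A-a, the junction that holds most of the TNRC6A reads, was set beside those of circRNAs with at least as many reads. There were 484 circRNAs with at least 96 reads in all, of which 6 (1.24%), itself included, had a ratio as low. The cut is the read number of TNRC6A-a, so none of the 484 has fewer reads, and no group matched for depth was compared. No circBase identifier was given for TNRC6A-a, as for 37 of the 484 (7.64%).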
